A study of Mus musculus with 2 samples.

Results

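Cells with *S100b* transcripts were described in mouse cortical neurospheres. The members were chosen by their measured values: a cell belonged when its *S100b* value was over 0 and its values for *Pdgfra*, *Sox10*, *Dcx* and *Gad1* were all 0. This rule selected 1219 of 12805 cells, called *S100b* cells here, of which 786 came from culture 1 and 433 from culture 2. They were set against the 10196 cells of the same cultures with 0 for all 5 genes, called comparison cells (3867 in culture 1 and 6329 in culture 2). Both cultures were wild-type, from dorsal telencephalon of C57BL/6 embryos at embryonic day 14.5, and were kept in a supplemented medium with EGF and bFGF at 10 ng/ml each. No agent, allele or time point differed between the cultures, so every comparison is between cells of one culture, repeated in the other.

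S100B is a small calcium-binding protein that astrocytes make in large amounts, and it is widely used as an astroglial marker. Oligodendrocyte progenitors can carry it too, which is why cells with *Pdgfra* or *Sox10*, markers of that lineage, were left out, as were cells with the neuroblast gene *Dcx* or the interneuron gene *Gad1*. Neurospheres are balls of dividing neural progenitors kept in suspension with EGF and FGF, and such progenitors share many transcripts with astrocytes, such as *Slc1a3* and *Fabp7*. A cell with *S100b* in such a culture is therefore not by this transcript alone an astrocyte.

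*S100b* lies on the plus strand at chr10:76253853-76261159 of GRCm38, in GENCODE annotation of that build. The 250 bases before the RefSeq start of *S100b* are shown because that gene defines the cells, and those before the outermost RefSeq start of *Apoe* because *Apoe* was among the genes most raised with it. Capitals mark the NFI half-site, the letters TTGGC searched on both strands, the short element bound by nuclear factor I proteins of glial cells. The sequences run 5′ to 3′ on the strand of the gene and come from RefSeq on GRCm38.p6, at chr10:76253586-76253835 (plus strand) and chr7:19699189-19699438 (minus strand).
S100b: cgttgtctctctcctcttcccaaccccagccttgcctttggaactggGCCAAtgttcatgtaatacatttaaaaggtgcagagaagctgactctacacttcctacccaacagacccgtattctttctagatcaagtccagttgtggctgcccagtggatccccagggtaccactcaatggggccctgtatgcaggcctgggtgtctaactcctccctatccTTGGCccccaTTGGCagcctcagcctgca
Apoe: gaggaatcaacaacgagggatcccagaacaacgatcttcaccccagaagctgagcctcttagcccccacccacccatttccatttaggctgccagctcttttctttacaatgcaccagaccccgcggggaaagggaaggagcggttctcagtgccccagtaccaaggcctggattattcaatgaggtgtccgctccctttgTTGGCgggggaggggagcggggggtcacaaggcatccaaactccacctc
The *S100b* window held 3 such half-sites and the *Apoe* window 1. Of 32851 promoter windows of this length, 41.5% held at least 1. Windows were found for 8 of the 12 genes with the largest positive difference described below. Of the 8, 4 held the half-site before at least 1 of their starts. Some of these genes, such as *Apoe*, have several starts, so this count of genes is not comparable with the share of windows. The letters are a match only, and no binding was measured.

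The share of *S100b* cells was 13.7% in culture 1 (exact 95% binomial interval 12.8 to 14.6%) and 6.14% in culture 2 (5.59 to 6.72%). *S100b* was over 0 in 1539 cells in all, and the rule removed 320 of them, 138 with *Pdgfra* or *Sox10* only, 115 with *Dcx* or *Gad1* only and 67 with both kinds. Intervals of shares cover counting error only. Of the cell barcodes, 48 occurred in both cultures, and 5 *S100b* cells carried such a barcode.

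Detection of *S100b* moved with the depth of the cell. Among cells at 0 for the other 4 genes, the share with *S100b* in culture 1 was 9.83% in the shallowest of 10 classes of total UMIs (unique molecular identifiers, counts of captured transcripts) and 28.2% in the deepest. In culture 2 it was 2.59% and 8.41%. *S100b* cells had a median of 22165 UMIs in culture 1 and 15615 in culture 2, against 19422 and 14502 in comparison cells, a difference in median log2 UMIs of 0.15 ± 0.059 (SD, n = 2 cultures). With *S100b* over the median of its values the direction reversed in both cultures, to -0.11 and -0.099. These values are scaled by depth and most members lay near 1 common amount, so that threshold itself picks shallower cells. With *S100b* above that amount, as described below, the differences were 0.21 in culture 1 and 0.071 in culture 2. Gene counts and positions below are therefore also given with comparison cells reweighted to the depths of the *S100b* cells.

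**Figure D1:**
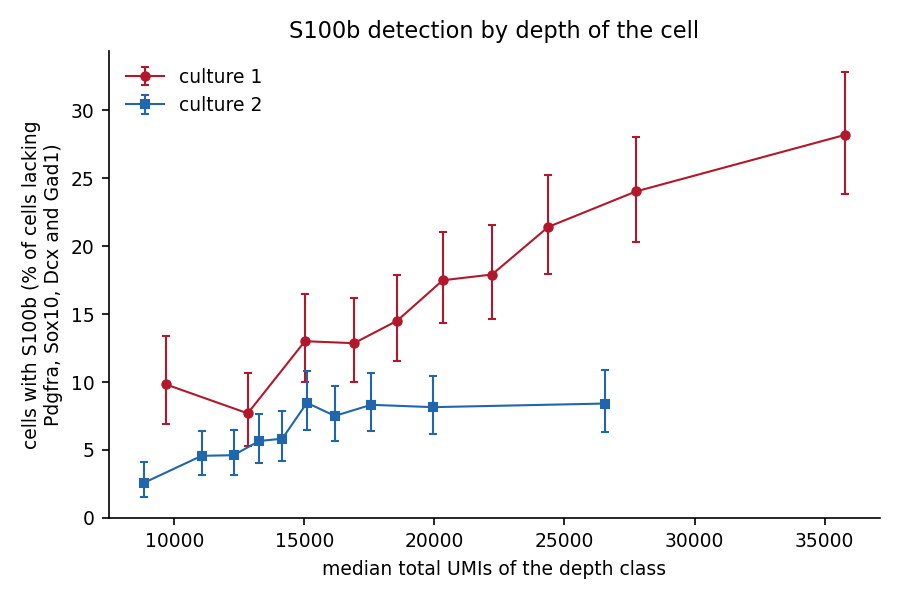
Percent of cells with *S100b* (y axis) against the median total UMIs of 10 classes of depth (x axis), among cells at 0 for *Pdgfra*, *Sox10*, *Dcx* and *Gad1*. Circles are culture 1 and squares culture 2, and bars are exact 95% binomial intervals. The share reached 28.2% in the deepest class of culture 1 and 8.41% in that of culture 2.

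Free RNA in droplets can put a transcript into a cell that does not make it. Cells with *Dcx* or *Gad1* and without *Pdgfra* or *Sox10*, of a neuronal kind that should lack *S100b*, held it in 24.4% of cases in culture 1 and 9.85% in culture 2 (median depths of 17264.5 and 15544 UMIs). Cells of like depth that lacked the 4 excluded genes held it in 16.2% and 6.63%. In culture 1 the share was thus higher in the neuronal kind (exact binomial interval 20.4 to 28.8%) than in cells of like depth. In culture 2 the interval of the neuronal kind, 5.35 to 16.3%, held the share of cells of like depth. A higher share was thus not shown in culture 2. No share here is read as a share of cells that express the gene. The part of free RNA in these shares was not tested. Cells with *Pdgfra* or *Sox10* held *S100b* in 24.4% and 12.6%, against 15.0% and 6.31% in cells of like depth that lacked the 4 excluded genes. Their mean *S100b* value over all cells of the group was 0.939 in culture 1 and 0.486 in culture 2. In cells of like depth that lacked the 4 genes it was 0.205 and 0.115. The transcript was thus not particular to the *S100b* cells.

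Most *S100b* cells carried the smallest common amount of the transcript. Scaled by the total UMIs of the cell, *S100b* values gathered around 1 commonest value, taken as the value of about 1 read. Whether it stood for 1 read in both cultures was not tested. In culture 1, 68.6% of *S100b* cells lay at that value (within 0.7 to 1.4 times it) and 29.9% above it. In culture 2 the shares were 85.9% and 11.8%. The commonest scaled value was 1.25 in culture 1 and 2.30 in culture 2, so *S100b* values are not comparable between cultures and are compared within each. In the deposited depth-normalized values, the *S100b* cells ranged from 0.134 to 11.4 in culture 1, with a median of 0.765. In culture 2 they ranged from 0.398 to 9.69, with a median of 1.75. The members nearest the threshold had 0.134 and 0.170 in culture 1 and 0.398 and 0.421 in culture 2, and the cells just outside had 0.

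Which other genes rose and fell with *S100b* was asked of 10091 genes detected in at least 1% of cells in each culture. *S100b* cells had higher mean values of genes tied to astroglia, led by the secreted glycoprotein gene *Sparcl1* and the lipid carrier gene *Apoe*, and lower values of many genes of dividing cells, such as *Cenpa*. The largest fall was in the metabolic gene *Bcat1*, which is in neither list of cell-cycle genes. With limma-trend on the log2 mean values and culture as a block, 718 genes were called higher, 7.12% of those tested, and 497 were called lower, 4.93%, at an adjusted p under 0.05. Of the 1215 called genes, 1210 had the same sign in both cultures, and 661 higher and 420 lower genes differed by more than 0.1 in both. Most differences were small: the median size among called genes was 0.27 on the log2 scale, 49 genes exceeded 0.5 and 6 fell under -0.5. With comparison cells reweighted to the same depths, 659 genes were called higher and 493 lower, of which 613 and 421 were among those called above. With 2 cultures the fit has 1 residual degree of freedom and takes its precision from all genes together, and without the block 0 genes were called in either direction (403 higher and 163 lower at an unadjusted p under 0.05).

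**Figure D2:**
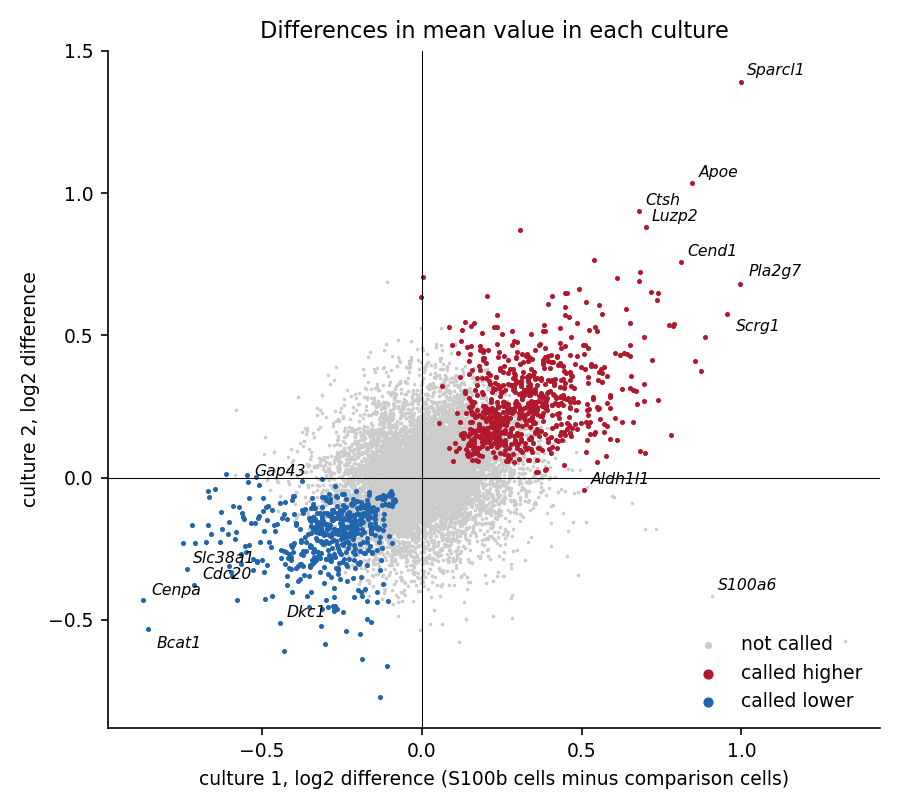
Log2 difference of the mean value, *S100b* cells minus comparison cells, in culture 1 (x axis) and culture 2 (y axis) for each of the 10091 genes tested. Red and blue points are genes called higher and lower with limma, and grey points are the rest. *Sparcl1* and *Apoe* lie farthest to the upper right, and *Aldh1l1*, *Gap43* and *S100a6* differed in culture 1 but not in the same way in culture 2.

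*Sparcl1* (chr5:104079111-104113733, minus strand) had a mean value of 1.87 in *S100b* cells and 0.913 in comparison cells of culture 1, and of 2.09 and 0.767 in culture 2. This was the largest difference of all genes tested, 1.20 ± 0.063 (SE) on the log2 scale, with an adjusted p = 1.07e-33 by limma. It was detected in 54.2% of *S100b* cells of culture 1 and in 38.6% of comparison cells of the same depths, and in 46.2% against 25.8% in culture 2. The groups thus differed in how many cells held the transcript as well as in its mean.

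*Apoe* (chr7:19696109-19699188, minus strand) had mean values of 3.35 against 1.84 in culture 1 and of 8.61 against 4.17 in culture 2, a log2 difference of 0.94 ± 0.046 (SE, limma adjusted p = 5.87e-36). *Pla2g7*, a secreted phospholipase that inactivates platelet-activating factor, had 0.596 against 0.274 and 0.446 against 0.260, a difference of 0.84. Both genes were higher in each culture. *Ctsh*, a lysosomal cathepsin, had 0.204 against 0.109 and 0.247 against 0.105. *Scrg1*, a small secreted protein, had 0.595 against 0.283 and 0.654 against 0.423.

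The other leading genes were of several kinds. *Pygm*, a glycogen phosphorylase, had 0.148 against 0.0707 in culture 1 and 0.138 against 0.0698 in culture 2. *Luzp2*, *Cend1*, *Sez6l*, *Mmd2* and *Tmem40* were also among the 12 largest, with log2 differences between 0.68 and 0.79. *Luzp2* was detected in only 2.54% of *S100b* cells of culture 2, so its value there rests on few cells.

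*S100b* cells with more than about 1 read of *S100b* (235 in culture 1 and 51 in culture 2) were set beside those with about 1 read (551 and 382). *Apoe* had means of 1.84, 3.21 and 3.70 in culture 1 for cells at 0, at about 1 read and above it, and of 4.17, 6.69 and 22.9 in culture 2. *Sparcl1* had 0.913, 1.75 and 2.18 in culture 1 and 0.767, 1.97 and 3.04 in culture 2. *Sez6l*, a membrane protein of the Sez6 family, had 0.0723, 0.121 and 0.206, then 0.0597, 0.103 and 0.338. These 3 genes followed the *S100b* value in both cultures, while *Pla2g7* in culture 2 had 0.260, 0.466 and 0.296 and did not. Median depths of the classes with *S100b* were close, 22081 and 22443 UMIs in culture 1 and 15757.5 and 15234 in culture 2. The classes are cut from *S100b* itself, so these values are a description.

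**Figure D3:**
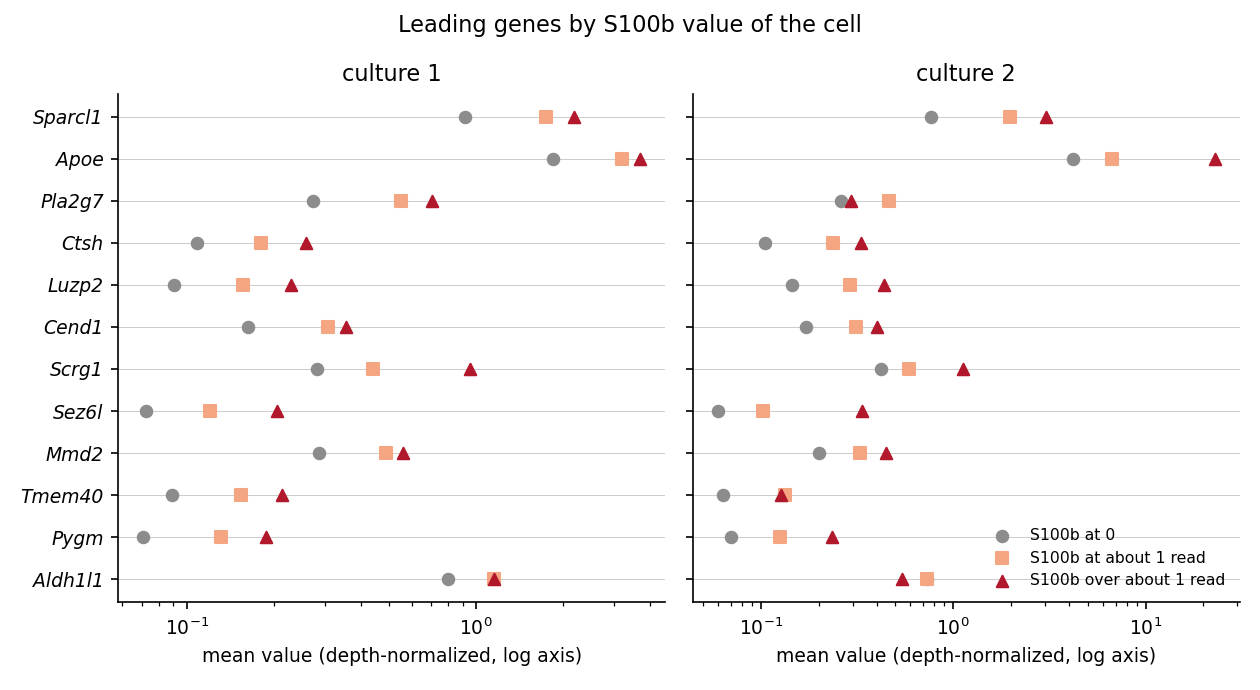
Mean depth-normalized value (x axis, log scale) of leading genes, taken from the 12 with the largest positive difference, and of *Aldh1l1* in 3 classes of cells, 1 panel per culture. Grey circles are comparison cells, orange squares *S100b* cells at about 1 read and red triangles those above it. Each leading gene plotted had its lowest mean in comparison cells in both cultures, and *Aldh1l1* did so in culture 1 only.

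Astroglial genes rose as a group in number. Of 40 listed genes 25 were tested, 17 were higher and 0 lower, with a median log2 difference of 0.26 beside 0.012 over all genes tested. The median was 0.38 in culture 1 and 0.23 in culture 2. The glutamate transporter *Slc1a3*, the commonest of these apart from *Fabp7* and *Mt3*, had 14.8 against 11.3 in culture 1 and 11.01 against 9.29 in culture 2. *Slc1a2*, the other main glial glutamate transporter, had 0.707 against 0.529 and 0.635 against 0.461. Both transporters rose, as did the bicarbonate transporter *Slc4a4*, *Mlc1*, the metallothionein *Mt3* and the prohormone-processing *Cpe*. Glutamine synthetase, *Glul*, was also called higher, but its rise lay in culture 1 (2.13 against 1.62, then 1.25 against 1.23 in culture 2). The levels of *Slc1a3* and *Fabp7* were high in the comparison cells too, with *Fabp7* at 93.7 and 90.2 there and 105 and 94.0 in *S100b* cells.

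Other astroglial markers did not separate the cells. *Aldh1l1* (chr6:90486427-90600203, plus strand), a folate enzyme and the second marker of the cell class, had 1.16 against 0.798 in culture 1 but 0.711 against 0.735 in culture 2. Its mean log2 difference was 0.23, called higher by limma with an adjusted p = 0.020, and 0.16 with an adjusted p = 0.181 at matched depths. The transcription factors *Sox9*, *Nfia* and *Nfib* passed no threshold, with differences of -0.091, 0.083 and -0.115. The connexin *Gja1* had 0.370 against 0.228 in culture 1 and 0.187 against 0.198 in culture 2. *Gfap*, *Aqp4*, *Gjb6*, *Aldoc* and *Clu* were not analysed here. The label of glial cells thus holds for many glial genes by degree. It does not hold for *Aldh1l1* and *Gja1* in culture 2, nor for *Sox9*, *Nfia* and *Nfib*.

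Genes of neural stem cells and radial glia moved less. Of 23 tested, 6 were higher and 2 lower, with a median difference of 0.11. The rise was in *Hes1*, *Ednrb*, *Dbi* and *Pea15a* besides *Slc1a3* and *Fabp7*. The fall was in the intermediate filament gene *Vim* (27.9 against 31.3, then 28.7 against 29.8) and the matrix gene *Tnc* (0.544 against 0.787, then 0.596 against 0.628). *Nes*, *Pax6*, *Hopx* and *Prom1* passed no threshold.

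Some genes of the oligodendrocyte lineage were higher although *Pdgfra* and *Sox10* were at 0. Of 19 tested, 9 were higher and 0 lower, with a median of 0.14. They were the proteoglycan genes *Bcan*, *Ncan* and *Cspg5*, the myelin enzyme *Cnp*, the matrix gene *Tnr*, and *Sirt2*, *Gpm6b*, *Fyn* and *Luzp2*. In culture 2 *Tnr* was detected in only 3.23% of *S100b* cells and 2.71% of comparison cells of the same depths. Its value there rests on few cells. *Cnp* had 0.471 against 0.277 in culture 1 and 0.432 against 0.353 in culture 2. *Olig2* and *Cspg4* did not follow. *Olig2* had 5.17 against 5.56 and 5.84 against 5.50. It was detected in 97.4% and 91.6% of comparison cells, so it does not mark the lineage in these cultures. *Cspg4* differed by 0.083 with an adjusted p = 0.70 by limma.

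Other cell types were covered only in part, so little can be said of them. Of 22 listed neuronal genes 10 were tested, and of these *Elavl3* was higher and *Stmn3* and *Gap43* lower. *Gap43*, a growth-cone protein, had 6.69 against 9.78 in culture 1 and 7.96 against 8.05 in culture 2, so its fall lay in culture 1. The 10 neuronal genes summed to 11.9 in *S100b* cells and 15.0 in comparison cells of culture 1, and to 13.3 and 13.5 in culture 2. Of 12 endothelial and mural genes *Acta2* and *Cspg4* were tested, and *Acta2*, a smooth muscle actin, rose (3.66 against 2.26, then 2.70 against 2.52). Of 9 Schwann and neural crest genes 2 were tested and 0 were called. The 12 ependymal and 12 microglial genes were not analysed here.

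**Figure D4:**
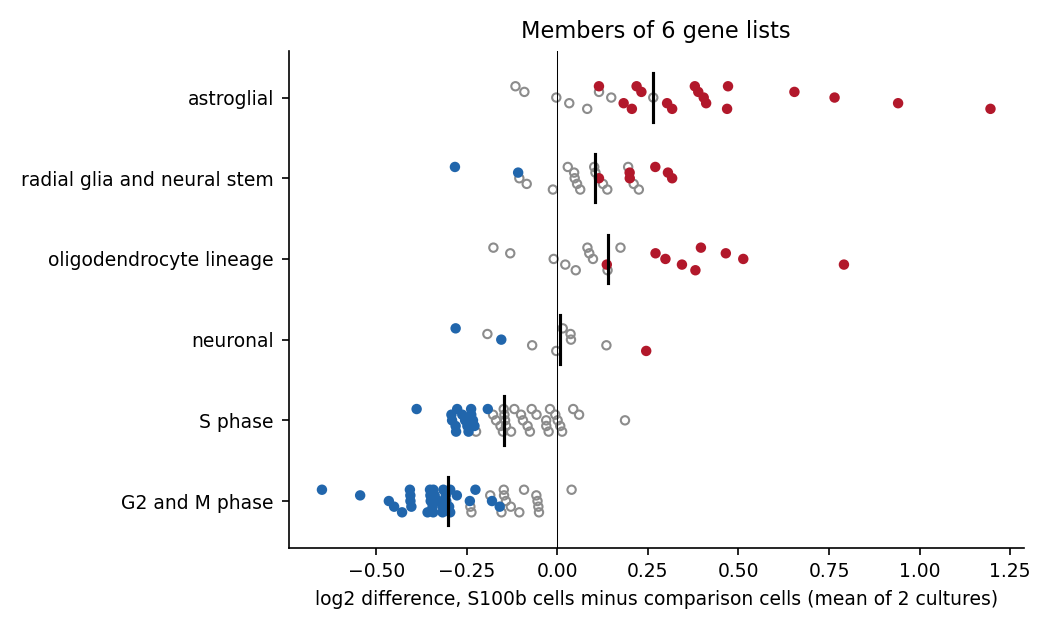
Log2 difference of each tested member of 6 gene lists, *S100b* cells minus comparison cells, as the mean of 2 cultures (x axis). Filled points were called with limma, red higher and blue lower, open circles were not, and black lines are medians. Astroglial genes lie mostly to the right, with a median of 0.26, and genes of G2 and M phase to the left, with a median of -0.30.

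The S100 family beside *S100b* itself was uneven. *S100a11* had 6.13 against 4.62 in culture 1 and 5.94 against 5.60 in culture 2 and was called higher. *S100a6* had 0.698 against 0.349 in culture 1 and 0.706 against 0.960 in culture 2, opposite directions, and was not called. *S100a10* had 16.2 against 15.5 and 16.3 against 18.3, and *S100pbp* differed by -0.025. Of 13 tested genes listed as partners of S100B, *Anxa2* and *Fgfr1* were higher and *Trp53*, *Mdm2*, *Cacybp*, *Tubb5* and *Vim* lower. *Trp53*, the tumour suppressor p53, had 1.27 against 1.49 and 1.10 against 1.36.

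Signalling genes moved little. Of 20 genes of EGF and FGF signalling 4 were higher and 0 lower: the receptors *Fgfr1* and *Fgfr3*, and *Spred1* and *Lrig1*, which restrain receptor signals. *Egfr* had 0.708 against 0.695 and 0.689 against 0.673. Of 8 Notch and BMP genes 2 were higher, *Hes1* (1.10 against 0.932, then 1.12 against 0.894) and *Id3* (4.54 against 4.12, then 6.65 against 5.67). Of 10 genes of hypoxia and glycolysis *Bnip3* and *Eno1* were higher, and of 4 stress genes the chaperone *Hsp90aa1* was lower.

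Genes of the dividing cell were lower. Of 46 genes of G2 and M phase, 31 were lower and 0 higher, with a median of -0.30, -0.46 in culture 1 and -0.12 in culture 2. Of 43 S phase genes 15 were lower and 0 higher, with a median of -0.15. The centromere histone *Cenpa* had 1.31 against 2.43 in culture 1 and 1.504 against 2.04 in culture 2, a fall by 0.65 ± 0.059 (SE). *Cdc20*, an activator of the anaphase-promoting complex, had 1.08 against 1.80 and 1.002 against 1.32. Both were lower in each culture, and *Ccnb2*, *Kif20a* and *Racgap1* were also among the 12 largest falls. Of 10 genes of cell cycle exit 0 were called by limma, with a median difference of 0.039.

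*Bcat1*, the cytosolic branched-chain aminotransferase, had 0.103 against 0.227 in culture 1 and 0.0898 against 0.152 in culture 2 (-0.69 ± 0.105, SE, limma adjusted p = 1.31e-07). *Slc38a1*, a glutamine transporter, had 0.445 against 0.773 and 0.595 against 0.757. *Dkc1*, the dyskerin of small nucleolar RNPs, had 0.965 against 1.33 and 0.705 against 1.03. *Bok*, a BCL2 family member, *Trp53i11* and the noncoding *2700099C18Rik* and *AC121821.1* complete the 12 largest falls. Exons of *Cnp*, *Cdc20*, *Dkc1*, *Kif20a*, *Lrig1*, *2700099C18Rik* and *AC121821.1* overlap those of another annotated gene, so their values are less certain.

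The cell-cycle position, which the authors computed from the expression of cell-cycle genes in these same cells, moved in the same direction as these genes. It is thus not a separate measure of the cycle, and neither are the stages below, which also come from expression. It is an angle the authors assigned to each cell, running from 0 to 2π. G2 ends near 1.0π, mitosis lies near 1.5π and most non-dividing cells lie towards both ends. Between 0.5π and 1.5π lay 39.4% of *S100b* cells and 49.5% of comparison cells in culture 1, and 29.8% against 35.1% in culture 2, a difference of -7.66 ± 3.36 percentage points (SD, n = 2). With comparison cells at the same depths the differences were -14.9 and -7.41 points. Because the smallest exact paired p with 2 cultures is 0.5, no p is given.

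The largest part of the gap lay in 1 stretch of the cycle. Between 1.0π and 1.25π lay 9.41% of *S100b* cells (7.46 to 11.7%) and 18.7% of comparison cells (17.5 to 19.99%) in culture 1, and 12.9% (9.92 to 16.5%) against 16.1% (15.2 to 17.0%) in culture 2, where the intervals overlap. Between 1.75π and 2.0π lay 37.0% against 32.3% in culture 1 and 48.3% against 44.7% in culture 2. Between 0 and 0.25π lay 16.03% against 10.4% in culture 1, with intervals apart, and 12.2% against 11.8% in culture 2. Between 0.75π and 1.0π the shares in culture 1 were 16.3% (13.8 to 19.1%) against 17.3%, or against 20.4% in comparison cells of the same depths. In culture 2 they were 8.31% against 7.57%, the other way, or against 8.79% at the same depths. By the authors' Seurat stages, 16.5% of *S100b* cells and 26.7% of comparison cells of culture 1 were in G2M, and 19.4% against 24.2% in culture 2, while S was near equal at 31.2% against 31.1% and 19.4% against 20.2%. The authors' SchwabeCC stages placed the gap elsewhere. In G2.M lay 9.03% of *S100b* cells against 9.34% of comparison cells in culture 1 and 9.47% against 9.46% in culture 2, and in G2 6.997% against 7.37% and 8.78% against 7.62%. In M.G1 lay 11.2% against 16.5% in culture 1 and 13.4% against 16.6% in culture 2. The circular mean of the position was 0.19π in *S100b* cells and 0.36π in comparison cells of culture 1, and 0.0019π and 1.97π in culture 2. It thus shifted in opposite directions in the 2 cultures.

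**Figure D5:**
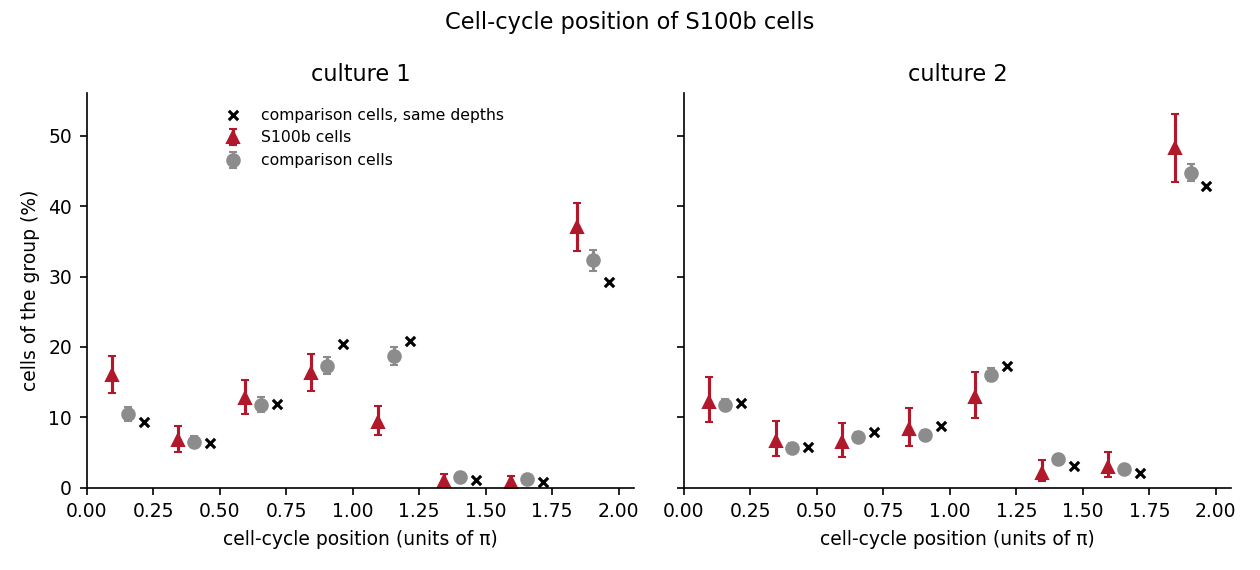
Percent of each group of cells (y axis) in 8 classes of the cell-cycle position (x axis, units of π), 1 panel per culture. Red triangles are *S100b* cells and grey circles comparison cells with exact 95% binomial intervals, and crosses are comparison cells reweighted to the depths of the *S100b* cells. The gap is widest between 1.0π and 1.25π in culture 1, 9.41% against 18.7%.

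Depth and position together were matched by reweighting the comparison cells within 5 classes of UMIs and 8 of position. Then 649 genes were called higher and 391 lower, of which 572 and 306 were among those called without reweighting. Of the 25 astroglial genes 15 were higher and 1, *Nfib*, lower. *Sparcl1* differed by 1.12, *Apoe* by 0.78, *Pla2g7* by 0.70 and *Bcat1* by -0.55, all still called. The genes of division lost most calls, with 2 of 46 G2 and M genes and 4 of 43 S phase genes lower. The position is computed from cell-cycle genes of these same cells, so matching on it removes much of their difference by construction. The loss of these calls is therefore not a finding about those genes. With this matching *Cenpa* differed by -0.12 (limma adjusted p = 0.106) and *Cdc20* by 0.0065 (adjusted p = 0.970).

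The nearest group the rule removed was the 630 cells with *Pdgfra* or *Sox10* and with 0 for *Dcx* and *Gad1*, 495 in culture 1 and 135 in culture 2. Against these, *S100b* cells had more *Apoe*, *Sparcl1*, *Pla2g7*, *Ctsc* and *Acta2*. Of 10161 genes tested, 928 were higher in *S100b* cells, 9.13%, and 943 lower, 9.28%. The 2 cell groups differed in depth, and with the *Pdgfra* or *Sox10* cells reweighted to the depths of *S100b* cells 525 and 477 genes were called. All the values below set *S100b* cells first.

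Of the astroglial genes 20 of 25 were higher and 2 lower. *Apoe* had 3.35 against 0.799 in culture 1 and 8.61 against 1.79 in culture 2, a log2 difference of 2.12 ± 0.101 (SE, limma adjusted p = 2.67e-14). *Sparcl1* had 1.87 against 0.470 and 2.09 against 0.414. *Aldh1l1* had 1.16 against 0.295 and 0.711 against 0.534, higher in both cultures. The 2 lower were *Sox9* (a difference of -1.53) and *Scrg1* (-0.58), the latter a gene that was higher against the comparison cells.

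Genes of the oligodendrocyte lineage are given without a count, because the other group was picked on genes of that lineage and some members passed the filter on low values only through it. *Ncan* and *Gpm6b* were higher in *S100b* cells against this group too, by 0.44 and 0.63. *Mbp*, the myelin basic protein gene, had 0.296 against 0.768 in culture 1 and 0.061 against 12.9 in culture 2, log2 differences of -1.24 and -6.87. In culture 2 it was detected in only 4.44% of the 135 cells with *Pdgfra* or *Sox10*, so that mean rests on few cells. Comparison cells had *Mbp* means of 0.0238 and 0.0317, below those of the *S100b* cells in both cultures. That difference was not tested, because *Mbp* did not pass the filter on low values there. *Mbp* was detected in only 7.12% and 1.39% of *S100b* cells. The limma call of *Mbp* (-4.05 ± 0.564, SE) was lost with those cells reweighted by depth (-2.71, adjusted p = 0.0897). *Bcas1*, a gene of early myelinating cells, had 0.168 against 0.660 and 0.191 against 2.33. *S100b* cells nevertheless exceeded the comparison cells in *Bcas1* by 0.63. It was detected in 10.6% and 4.39% of *S100b* cells, and in 8.58% and 4.27% of comparison cells of the same depths. That excess thus rests on few cells. Of the neuronal genes 7 of 10 were lower, and of the G2 and M genes 35 of 46.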

How the data were processed

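Single-cell RNA-seq of 2 replicate neurosphere cultures was analysed, per culture. Per-gene values, a linear signal scaled to cell depth, were deposited by the authors from spliced Alevin counts (Salmon 1.3.0, GRCm38), after removing outlying cells by depth, gene number, mitochondrial share and doublet score. No further cell filter or doublet caller was applied here. Across 3977 genes the commonest low value of culture 2 was 0.701 to 1.47 times that of culture 1 (5th to 95th percentile). For *S100b* it was 1.83 times, outside that range. A gene's values were therefore compared within cultures only. Total UMIs are expected counts, estimated and deposited by the authors, and the position and stages are other deposited values. Counts could not be recovered, so no count model or thinning was used.

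Symbols were found for 10662 of 10666 genes. The 5 genes of the rule were left out of tests. Mean values per cell group and culture were transformed as log2(mean + 0.05) and fitted with limma 3.58.1 (R 4.3.3), with empirical Bayes, a mean trend and culture as a block, and Benjamini-Hochberg adjustment over all genes tested. Cells are not replicates, and the labels do not say whether the cultures came from separate litters, so p-values cover only these 2 cultures. SEs and p-values rest mainly on a spread pooled over all genes, not on a gene's own spread between the cultures. A gene with unlike differences, such as *Gap43* (-0.54 in culture 1 and -0.017 in culture 2), could thus be called. Differences understate the change of low genes. The prior had 115.5 degrees of freedom against 1 of the residual (25.42 against the *Pdgfra* or *Sox10* cells). Intervals are exact binomial intervals from scipy 1.17.1 (Python 3.11.15). The fit was tested on simulated data.

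The members and gene lists were chosen with earlier results of these data known. Named genes are the 12 largest called differences in each direction with 1 sign in both cultures, the 6 largest in each direction against *Pdgfra* or *Sox10* cells, the rule genes and *Aldh1l1*, the S100 family and up to 4 genes of each of 17 lists. Further list members named as called or not called were chosen after their values were seen. Results for some genes that the rule names are not reported here. Coordinates are of GENCODE vM21 (GRCm38), where the authors used a later release. Alternatives were other pseudocounts (0.01, 0.2), no filter on low values, no block, reweighting by depth and position, mean log values, other thresholds on *S100b*, other comparison cells and each culture alone.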

Additional observations from a re-analysis of the deposited data

How the results depend on the processing

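Leaving out a culture leaves 1, for which genes could not be tested, so gene counts have no value there. The share between 0.5π and 1.5π differed by -10.0 to -5.28 points and log2 UMIs by 0.11 to 0.19 with 1 culture, and the share of *S100b* cells was 6.14 to 13.7%. With *S100b* over the median of its values, the difference in position was -17.7 points and log2 UMIs differed by -0.10, the reverse of the reported direction. That threshold on depth-scaled values picks shallower cells, so neither value is read as a trend with *S100b*. With depth reweighted the position differed by -11.2 points, and with *S100b* over about 1 read, an alternative chosen after seeing the data, by -12.5 points. That alternative called 283 genes higher and 333 lower. Without the replicate block of culture, 0 and 0 genes were called against comparison cells, and 325 higher and 291 lower against *Pdgfra* or *Sox10* cells, since the difference between cultures then enters the error. Against those cells 525 higher and 477 lower were called with depth reweighted, and 472 and 341 with depth and position, for which 41 *S100b* cells had no counterpart; the cause was not tested. The log2 difference of *Cdc20* was 0.0065 under the latter reweighting against comparison cells. Of 25 genes named by size or as *Aldh1l1*, 18 stayed called in the same direction under depth and position and 24 under depth alone. Other pseudocounts, no filter, mean log values another comparison group and the median threshold kept every count within 1.5 times. Depth limits genes detected in few cells, such as *Luzp2* in culture 2.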
